A study of Mus musculus with 24 samples.

Results

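The genes that flank Nr1i2 on mouse chromosome 16 were followed through livers of PXR knockout (PXRKO) and wild-type (WT) mice. Nr1i2 encodes the pregnane X receptor (PXR) and lies at chr16:38248323-38294824 (GRCm38). The members are all genes of the vehicle and PCN table that start between 33 and 44 Mb of chromosome 16, Nr1i2 left out, which gave 81 of the 19650 genes in that table. The rule uses position and no measured value, but the window was drawn with earlier results of these data known, the lower level of Pla1a in PXRKO livers among them. On the lower-coordinate side of Nr1i2 lie 55 members and on the upper side 26. All 81 matched the GENCODE annotation, 55 as protein-coding genes, and 3 carried no symbol. A mean of at least 10 normalised read counts was reached by 55 members, and the other 26 lay below it. One further gene of the window, Poglut1, was listed in the knockout tables but not in the vehicle and PCN table, and is described beside the members.

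PXR is a nuclear receptor of hepatocytes that binds DNA with the retinoid X receptor and induces genes of drug and steroid metabolism when a ligand such as pregnenolone 16α-carbonitrile (PCN) is bound. A gene knocked out by homologous recombination is carried in a stretch of DNA from the embryonic stem cell used. Neighbouring genes on that stretch can keep the alleles of that cell, which are called passenger DNA, even after many backcrosses. The comparison therefore asked whether genes near Nr1i2 differed between PXRKO and WT livers more often than genes elsewhere.

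Liver RNA was sequenced from 24 male mice in 6 groups of 4. PXRKO mice (C57BL/6 in the series design, C57Bl/6N in the sample labels), aged 20 weeks, received atorvastatin (10 mg/kg) or vehicle (distilled water). WT C57BL/6N mice aged 19 to 20 weeks received PCN (100 mg/kg), atorvastatin (10 mg/kg), pravastatin (10 mg/kg) or vehicle (distilled water). All were gavaged for 4 days and fasted for 12 h. The sources used here do not name the embryonic stem cell line or the backcrosses behind the knockout. WT and PXRKO mice belonged to 2 different experiments, and for every genotype difference below genotype and experiment cannot be told apart. Each library title has a number of its own, but the labels do not say how the 4 were drawn from the treated mice, and p-values measure the spread between these libraries. Levels are normalised read counts, meaning counts divided by size factors. The tables had been normalised one by one and were brought to a common scale through the groups they share. Errors are SD over the 4 libraries of a group.

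Listed genes held 8.16 M to 16.3 M counts in PCN libraries and 6.64 M to 24.6 M in WT vehicle libraries. Size factors ran from 0.634 to 1.13 in PXRKO atorvastatin, 1.03 to 1.43 in WT atorvastatin, 0.771 to 1.28 in PXRKO vehicle and 0.543 to 2.02 in WT vehicle. The tables of PXRKO against WT list only genes that passed the authors' test. Apart from the members called there, PXRKO values exist for 5 members, which a less filtered table of PXRKO atorvastatin against PXRKO vehicle lists. All other members have no value for PXRKO livers here. Among 5 hepatocyte markers, Alb was at 0.691 and Ttr at 0.767 of WT in PXRKO vehicle. In PXRKO atorvastatin, Ttr was at 0.830 of WT. The authors called Apoa1, Cps1 and Serpina1c in neither comparison. Among 6 endothelial markers, Kdr was at 1.30 and Ptprb at 1.18 times WT in PXRKO vehicle, and Lyve1 at 1.77 and Ptprb at 1.21 times WT in PXRKO atorvastatin. Of 8 Kupffer cell, 4 biliary and 4 B and T cell markers, of 4 listed stellate markers and of 1 listed neutrophil marker, the authors called 0 in either comparison. Most uncalled markers have no value for PXRKO livers in the tables, so no summed level is given for those groups. Summed hepatocyte markers lay between 702855 and 769961 in PCN and between 773772 and 893816 in WT vehicle, and summed B and T cell markers between 12.1 and 50.4 in PCN and between 15.7 and 38.7 in WT vehicle. In bulk liver, fewer cells of a type and less RNA per cell cannot be told apart, and the part of these markers in the results below was not tested.

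Nr1i2 itself checked the genotype labels. Its counts were 659, 541, 585 and 635 in PXRKO vehicle livers, against 1250.1, 1322, 1069 and 1380.1 in WT vehicle livers. They were 650.2, 628, 398 and 609 in PXRKO atorvastatin livers, against 1394, 1497, 1665 and 1443 in WT atorvastatin livers. All 8 PXRKO libraries lay below all 8 WT libraries, at 0.482 of WT under vehicle and 0.381 under atorvastatin, where the authors' deposited tables give adjusted p values of 6.4e-20 and 2.4e-18. Counts per gene include exons outside a deleted part, so a remaining signal says nothing about protein.

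Near Nr1i2, 2 of the 81 members differed between PXRKO and WT livers in both drug settings, Pla1a and Sema5b, and both were lower in PXRKO livers. Pla1a stood out by size and by separation of the groups, and Sema5b overlapped between genotypes. Under atorvastatin 7 further members were called. A member counts as called where the adjusted p (DESeq2, Benjamini-Hochberg) was below 0.05. With vehicle, the authors' deposited table called 2 of 81 members (2.47%), beside 1.48% of all genes. Both were lower, and 0.657% of all genes were called lower. Pla1a, whose difference was known when the window was drawn, is 1 of these 2. With atorvastatin, 9 of 81 members passed (11.1%), against 6.65% of all genes. Of these, 5 were higher and 4 lower, where 3.07% of all genes were called higher and 3.58% lower. The 2 members called in both comparisons in the same direction stood beside 0.733% of all genes. The 2 comparisons have no library in common.

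The shares differ from the background by few genes. A single gene is 1.23 percentage points of the 81 members. Where the mean reached 10 normalised counts, 2 of 55 members were called with vehicle, where 2.20% of such genes were, and 9 of 55 with atorvastatin, where 10.1% were. With at least a 1.5-fold difference of group means added, 2 members remained with vehicle beside 0.875% of all genes, and 4 with atorvastatin beside 3.04%. The rest of chromosome 16 held 518 genes, of which 9 were called with vehicle (1.74%) and 44 with atorvastatin (8.49%). Over the other autosomes and chromosome X, the share called with vehicle ran from 0.700% on chromosome 2 to 2.54% on chromosome 10, and the members' 2.47% lay inside that range. With atorvastatin it ran from 4.90% on chromosome 2 to 9.88% on chromosome 19, and the members' 11.1% lay above it. These chromosomes list 462 to 1472 genes each, so their shares are steadier than a share over 81 genes. No stretches of like size were compared.

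**Figure D1:**
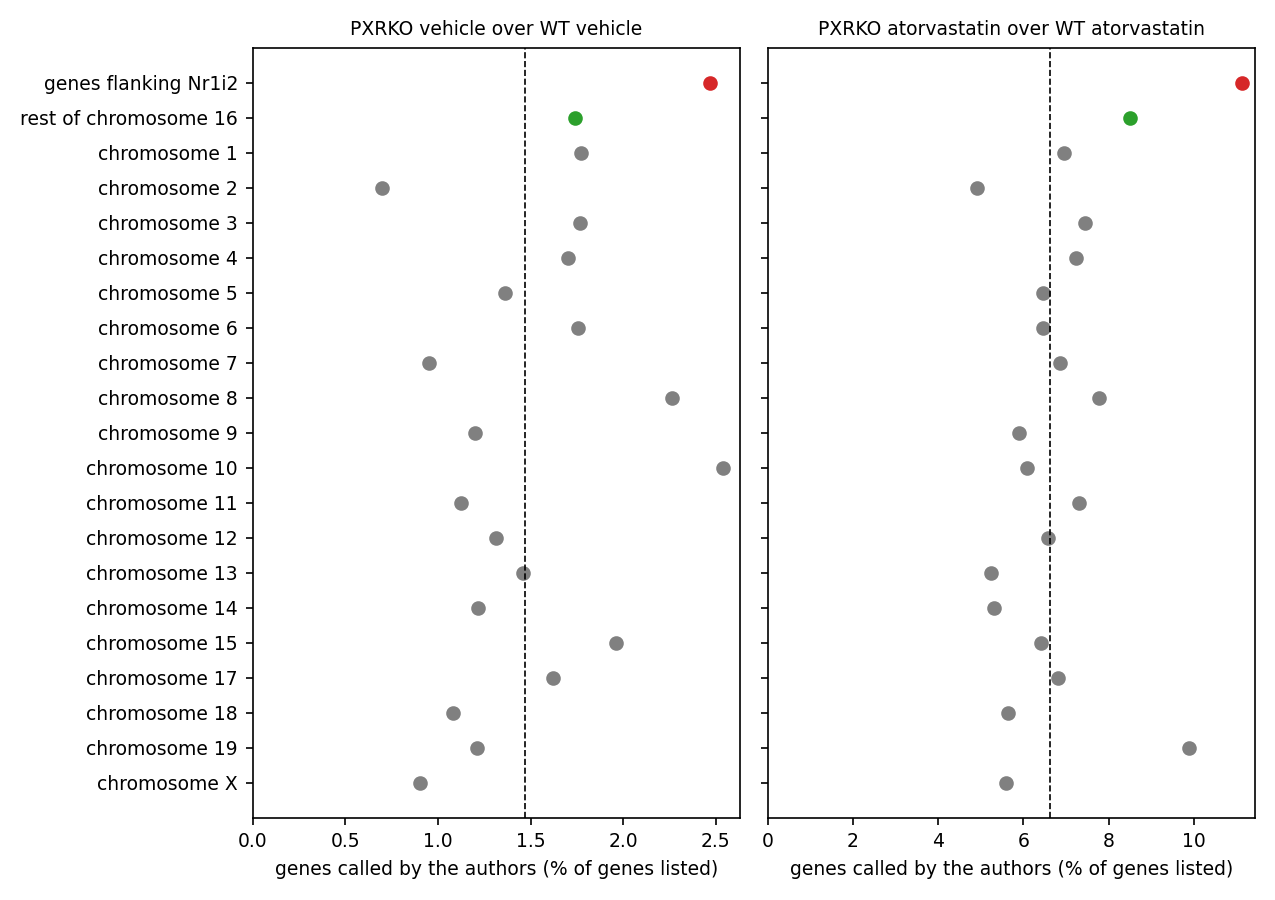
Share of listed genes called by the authors (adjusted p below 0.05, x axes in percent) for the 81 genes flanking Nr1i2, the rest of chromosome 16, every other autosome and chromosome X, in PXRKO vehicle over WT vehicle (left) and PXRKO atorvastatin over WT atorvastatin (right). The dashed line is the share over all genes outside the window, and the flanking genes sit right of it in both panels at 2.47% and 11.1%, which rest on 2 and 9 genes.

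By distance from Nr1i2, the steps hold 7 to 29 members each, and are read beside the 6.65% of all genes called with atorvastatin and the 1.48% called with vehicle. Within 0.5 Mb, 2 of 15 members were called with atorvastatin (Pla1a and Timmdc1) and 1 of 15 with vehicle (Pla1a). The difference of Pla1a was known when the window was drawn. Between 0.5 and 1 Mb, 3 of 7 were called with atorvastatin (Hgd, Rabl3 and Igsf11) and none by the authors with vehicle. Of these 3, edgeR called Rabl3 and Igsf11 and not Hgd, and only Igsf11 stayed called with every library left out. Between 1 and 2 Mb, none of 11 members was called by the authors in either comparison. Between 2 and 3 Mb, 2 of 19 were called with atorvastatin and 1 of 19 with vehicle. Beyond 3 Mb, 2 of 29 were called with atorvastatin and none with vehicle. These counts are a description, since the distance steps were set with earlier results known.

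**Figure D2:**
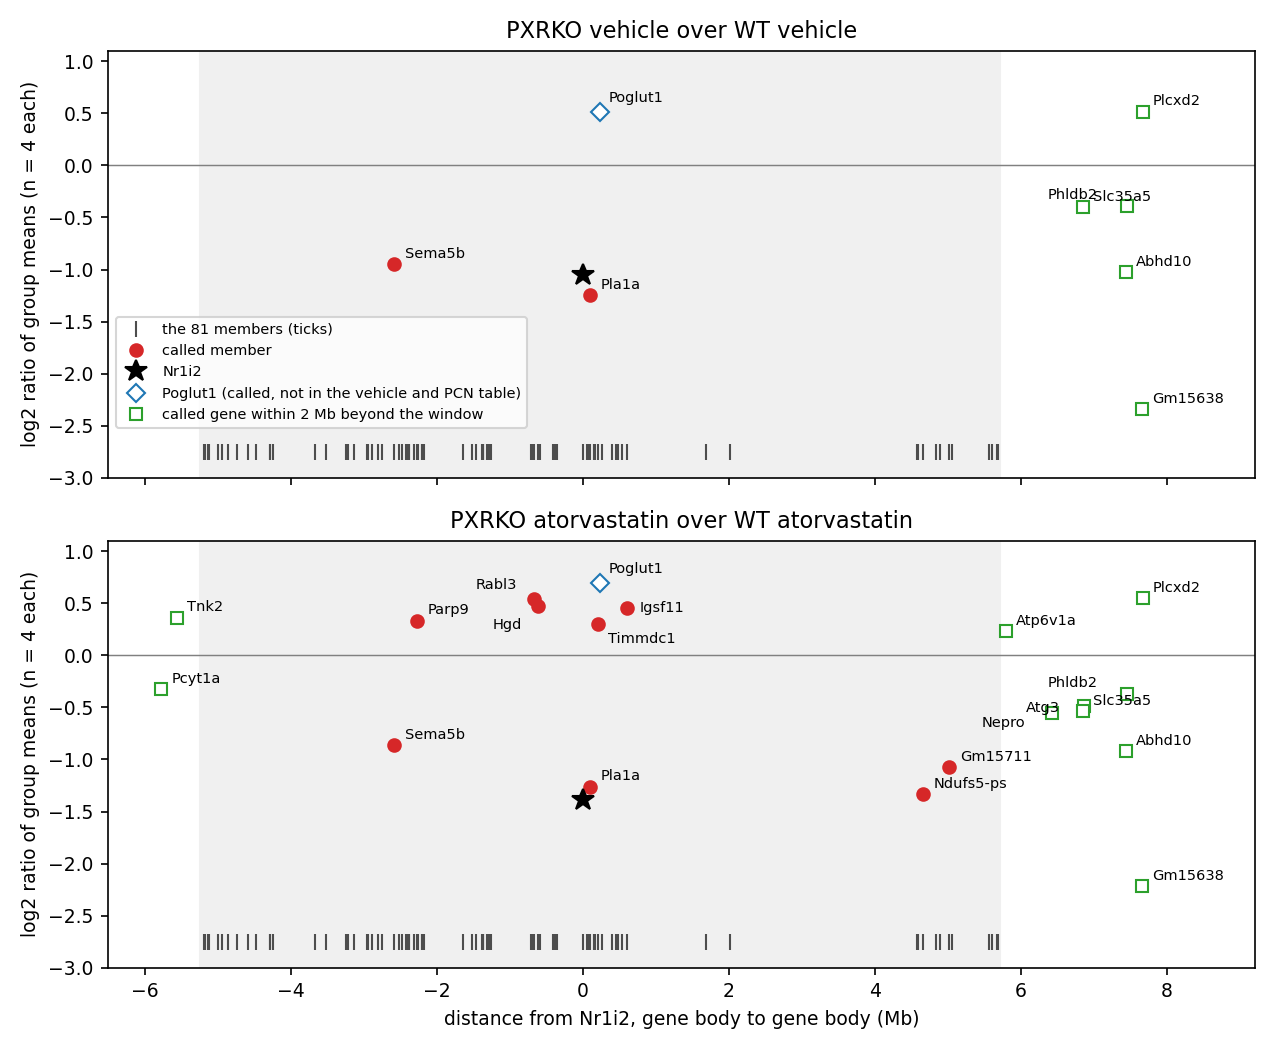
Log2 ratio of group means for genes called by the authors, by distance from Nr1i2 in Mb, for PXRKO vehicle over WT vehicle (top) and PXRKO atorvastatin over WT atorvastatin (bottom). Grey marks the window, ticks the 81 members, filled circles called members, the star Nr1i2, the diamond Poglut1 and squares called genes within 2 Mb beyond the window; Tagln3, at 0 in PXRKO vehicle, is not drawn. Pla1a lies beside Nr1i2 at a like ratio in both panels, and a group of squares lies past the upper edge.

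Pla1a, which encodes a phospholipase that cleaves phosphatidylserine, lies at chr16:38396117-38433145, 0.10 Mb from Nr1i2 on the upper side and on the same strand. It had 114, 116, 146 and 123 normalised counts in PXRKO vehicle livers, against 318, 299.6, 236 and 332 in WT vehicle livers. It had 128, 106, 144 and 186 in PXRKO atorvastatin livers, against 314, 350.3, 346 and 340.3 in WT atorvastatin livers. Every PXRKO library lay below every WT library. Means were 125 ± 14.5 in PXRKO vehicle and 296 ± 42.3 in WT vehicle, and 141 ± 33.7 in PXRKO atorvastatin and 338 ± 16.5 in WT atorvastatin. The ratios of PXRKO to WT were 0.421 and 0.417, where the authors' deposited tables give adjusted p values of 9.2e-15 and 3.3e-13.

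With edgeR's quasi-likelihood test on the listed genes, Pla1a also passed, with a log2 difference of -1.26 (SE 0.127, adjusted p = 0.00093) under vehicle and -1.25 (SE 0.142, adjusted p = 0.00059) under atorvastatin. Pla1a was the only member that edgeR called under vehicle. The fit took only the 307 genes listed under vehicle and the 1374 listed under atorvastatin, so no other gene or member could be called. Under vehicle the called genes were 0.697% of the genes that the authors' adjustment covers. Under atorvastatin edgeR called 3 of the 81 members, Pla1a, Igsf11 and Rabl3, beside 6.45% of those genes. The members' share thus lay below that background, unlike with the authors' calls. The 0.697% and the 6.45% are bounded by the listed genes and are not rates over all genes. With each of the 8 libraries of a comparison left out in turn, Pla1a stayed called in 8 of 8 fits in both comparisons. By p it ranked 7 of 307 genes in the vehicle table and 40 of 1374 in the atorvastatin table. The genotype difference of Pla1a under atorvastatin minus that under vehicle was 0.01 on the log2 scale (95% interval -0.40 to 0.42). Pla1a had 397, 326, 309.6 and 315 normalised counts with PCN, against the WT vehicle values above, and was not called (edgeR log2 0.18, adjusted p = 0.451).

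**Figure D3:**
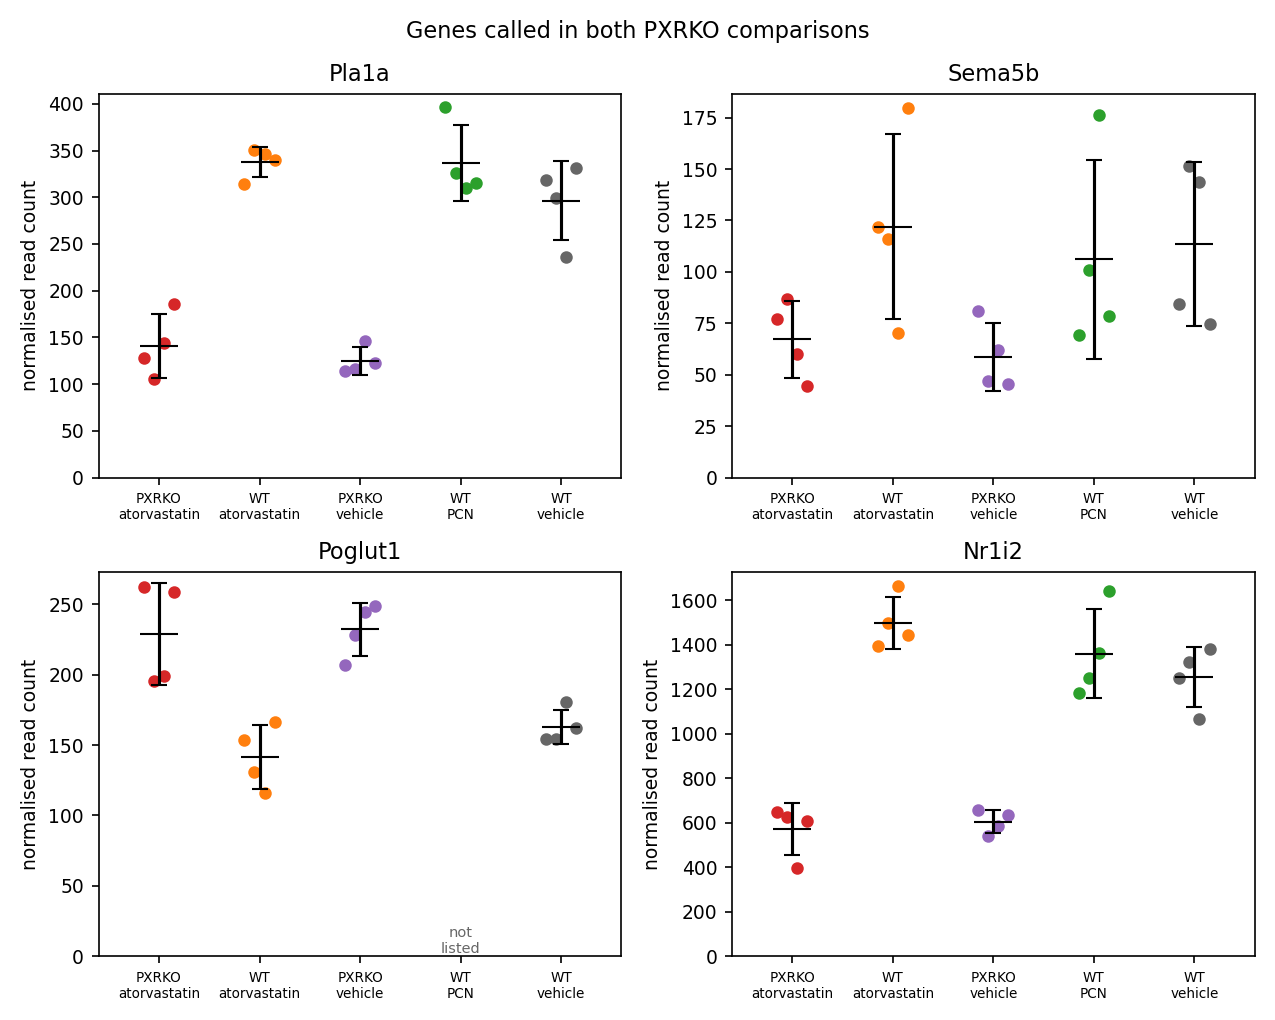
Normalised read counts (y axes from 0) of Pla1a, Sema5b, Poglut1 and Nr1i2 in each library, by group, with the mean and SD (n = 4) as bars. For Pla1a, Poglut1 and Nr1i2 the PXRKO groups do not overlap the WT group of the same treatment, for Sema5b they do, and Poglut1 has no value for PCN.

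Sema5b, a transmembrane semaphorin of axon guidance, lies at chr16:35541145-35664732, 2.58 Mb from Nr1i2 on the lower side. It had 80.8, 47.0, 61.8 and 45.4 normalised counts in PXRKO vehicle livers, against 84.1, 152, 144 and 74.7 in WT vehicle livers. It had 77.2, 86.8, 60.2 and 44.3 in PXRKO atorvastatin livers, against 122, 116, 70.2 and 179.8 in WT atorvastatin livers. In both pairs the groups overlapped, with 1 WT library inside the PXRKO range. The ratios were 0.518 and 0.550, where the authors' deposited tables give adjusted p values of 0.0357 and 0.0322. Neither passed in edgeR on the listed genes (adjusted p = 0.214 under vehicle and 0.0944 under atorvastatin), and with a library left out edgeR called it in 0 of 8 fits under vehicle and 1 of 8 under atorvastatin.

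Poglut1, an enzyme that adds glucose to epidermal growth factor repeats of Notch, lies at chr16:38525137-38550258, 0.23 Mb from Nr1i2. It went the other way. It had 207, 228, 245 and 249 normalised counts in PXRKO vehicle livers, against 154, 154, 181 and 162 in WT vehicle livers. It had 263, 196, 199 and 259 in PXRKO atorvastatin livers, against 153, 131, 116 and 166 in WT atorvastatin livers. The groups did not overlap in either pair. The ratios were 1.43 and 1.62, where the authors' deposited tables give adjusted p values of 0.0029 and 0.00093, and edgeR on the listed genes gave adjusted p values of 0.0410 and 0.0154. Under vehicle the edgeR call held in only 1 of 8 fits that left out a library, with adjusted p from 0.0285 to 0.149. Under atorvastatin it held in 6 of 8.

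The reference sequence at the start of the genes called in both comparisons is shown for the hexamers that PXR and its partner bind. The windows run from 250 bases before to 50 after the annotated start (RefSeq, GRCm38.p6), and Pla1a has no entry there. Nr1i2 is at chr16:38294775-38295074 on the minus strand, Sema5b at chr16:35541112-35541411 on the plus strand and Poglut1 at chr16:38550207-38550506 on the minus strand. Capitals mark AGTTCA or AGGTCA on either strand.
Nr1i2: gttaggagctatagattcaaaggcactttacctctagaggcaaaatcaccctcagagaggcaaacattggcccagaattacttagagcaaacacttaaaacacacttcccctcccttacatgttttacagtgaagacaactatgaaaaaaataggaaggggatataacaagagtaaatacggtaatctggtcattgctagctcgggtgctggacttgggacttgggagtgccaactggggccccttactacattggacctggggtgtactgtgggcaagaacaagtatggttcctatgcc
Sema5b: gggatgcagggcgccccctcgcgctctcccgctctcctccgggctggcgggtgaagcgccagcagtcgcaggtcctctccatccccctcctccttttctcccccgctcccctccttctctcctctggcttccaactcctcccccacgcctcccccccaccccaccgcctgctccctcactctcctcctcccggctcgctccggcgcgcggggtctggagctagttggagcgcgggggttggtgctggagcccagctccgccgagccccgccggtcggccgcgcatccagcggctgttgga
Poglut1: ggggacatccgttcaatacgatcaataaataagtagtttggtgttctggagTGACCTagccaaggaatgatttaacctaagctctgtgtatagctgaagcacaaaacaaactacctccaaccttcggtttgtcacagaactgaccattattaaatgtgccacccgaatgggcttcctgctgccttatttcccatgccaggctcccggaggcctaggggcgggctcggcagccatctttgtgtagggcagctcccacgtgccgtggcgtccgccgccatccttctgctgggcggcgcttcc
Poglut1 held 1 such hexamer, and Nr1i2 and Sema5b held none. Of 61 start windows that matched 49 members, 17 held at least 1 hexamer (27.9%), beside 9104 of 32851 windows of all genes (27.7%). A pair of hexamers spaced as a direct repeat by 3 or 4 bases, or as an everted repeat by 6, was in 0 members' windows and in 16 windows of all genes. These are matches of letters and not evidence of binding.

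Under atorvastatin alone, 5 members were called higher and 2 lower in PXRKO livers, and whether these differ from the vehicle pair could not be tested, since the vehicle table does not list them. Igsf11, an adhesion protein of the immunoglobulin superfamily 0.60 Mb from Nr1i2, had 944, 811, 778 and 876 normalised counts in PXRKO atorvastatin livers, against 593, 621, 590.3 and 685 in WT atorvastatin livers. The groups did not overlap, the ratio was 1.37, and the adjusted p was 0.00014 in the authors' deposited table and 0.0081 in edgeR on the listed genes. The edgeR call held in 8 of 8 fits that left out a library. Igsf11 overlaps the predicted gene Gm15802 on the same strand, so counting by strand would not separate reads in the overlap. In the WT comparison that shares those WT atorvastatin libraries, Igsf11 was lower with atorvastatin, at 622 ± 43.7 in WT atorvastatin and 781 ± 86.5 in WT vehicle (adjusted p = 0.0237 in the authors' deposited table).

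Rabl3, which encodes a small GTPase-like protein 0.68 Mb from Nr1i2, had 253, 265, 261 and 345 normalised counts in PXRKO atorvastatin livers, against 164, 172, 205 and 232 in WT atorvastatin livers. The groups did not overlap, at a ratio of 1.45 (adjusted p = 0.0104 in the authors' deposited table and 0.0381 in edgeR). In WT vehicle livers Rabl3 ran from 197 to 266, which overlapped PXRKO atorvastatin. The edgeR call held in 1 of 8 fits that left out a library. Hgd, the homogentisate dioxygenase of tyrosine breakdown and the member of highest level per length, had 7586, 6877, 7194 and 12200.4 in PXRKO atorvastatin livers, against 5923, 6242, 6079.7 and 6152 in WT atorvastatin livers. WT vehicle livers had 5615 to 7632, which overlapped PXRKO atorvastatin. One PXRKO atorvastatin library lay far above the others of its group. Hgd had a ratio of 1.39 (adjusted p = 0.0421 in the authors' deposited table), edgeR did not call it (adjusted p = 0.119), and its log2 ratio was 0.47 with all libraries and 0.24 without that library.

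Parp9, an interferon-induced partner of the ubiquitin ligase Dtx3l, had 1150.2, 1186, 1023 and 1072 normalised counts in PXRKO atorvastatin livers, against 864, 774, 871 and 1010.4 in WT atorvastatin livers. Timmdc1, an assembly factor of mitochondrial complex I 0.20 Mb from Nr1i2, had 433, 478, 426 and 405 in PXRKO atorvastatin livers, against 372, 332, 347 and 362 in WT atorvastatin livers. In both genes the groups did not overlap, at ratios of 1.26 and 1.23 (the authors' deposited table gives adjusted p values of 0.0188 and 0.0352). In edgeR they lay just past the threshold, at adjusted p of 0.0509 and 0.0525. Timmdc1 ran from 350 to 448 in WT vehicle livers, which overlapped PXRKO atorvastatin. Parp9 overlaps Dtx3l at one end and the predicted gene Gm15564 at the other. Its mean was 1108 ± 73.9 in PXRKO atorvastatin, 880 ± 97.7 in WT atorvastatin and 1089 ± 115 in WT vehicle. WT atorvastatin over WT vehicle, which shares the WT atorvastatin libraries, was not called for Parp9 (adjusted p = 0.0570 in the authors' deposited table).

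The 2 members called lower under atorvastatin alone were processed pseudogenes inside Zbtb20, on its strand. Ndufs5-ps, named after the complex I subunit Ndufs5, had 12.6, 7.89, 17.7 and 4.79 normalised counts in PXRKO atorvastatin livers, against 32.1, 23.2, 29.7 and 23.2 in WT atorvastatin livers. Gm15711 had 50.6, 25.2, 35.4 and 20.3 in PXRKO atorvastatin livers, against 55.8, 109.9, 50.4 and 60.9 in WT atorvastatin livers. The groups did not overlap for Ndufs5-ps and overlapped for Gm15711. Their ratios were 0.398 and 0.475, where the authors' deposited table gives adjusted p values of 0.0232 and 0.0220, and edgeR gave 0.0553 and 0.0746. Reads of a processed pseudogene can come from its parent gene or from the intron it lies in, so both are uncertain. Ndufs5-ps averaged 27.0 ± 4.54 in WT atorvastatin and 9.36 ± 3.19 in WT vehicle (adjusted p = 0.00062 in the authors' deposited table), a comparison that shares the WT atorvastatin libraries.

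**Figure D4:**
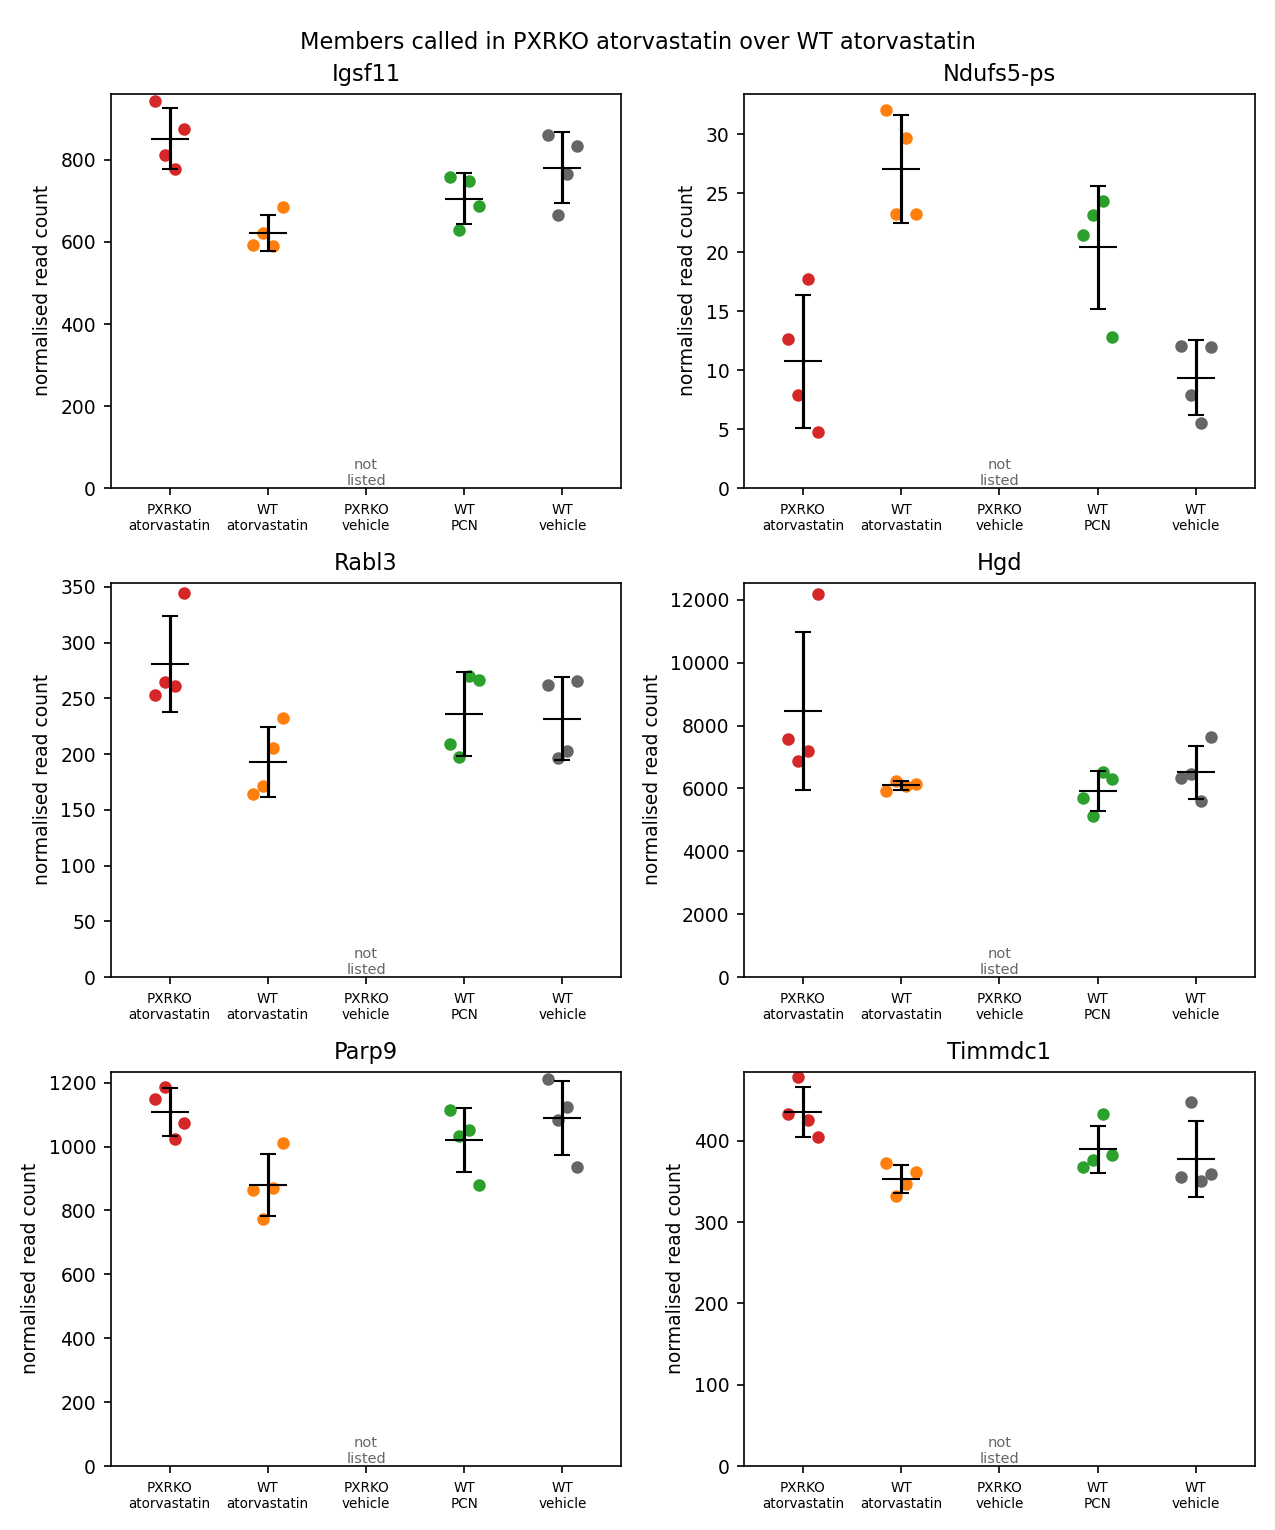
Normalised read counts (y axes from 0) of 6 members called under atorvastatin, in each library by group, with the mean and SD (n = 4). PXRKO vehicle livers have no listed value for these genes. The PXRKO atorvastatin libraries lie apart from the WT atorvastatin libraries in each panel, and 1 PXRKO library of Hgd lies far above the others. These members are shown because they were called in this comparison. Gm15711, also called under atorvastatin alone, overlapped between the groups and is not drawn.

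By role, no list held more than 2 members called in either PXRKO comparison. The lists hold 3 to 8 members, so that 1 called member already exceeds the 1.48% of all genes called with vehicle and the 6.65% called with atorvastatin, and no list is read as standing apart. Of 8 immediate neighbours of Nr1i2 that were members (Gsk3b, Popdc2, Cox17, Pla1a, Adprh, Tmem39a, Timmdc1 and Cd80), 1 was called with vehicle and 2 with atorvastatin. Pla1a, known beforehand, was called in both, and Timmdc1 with atorvastatin. Of 6 immune and interferon members 1 was called under atorvastatin (Parp9). Of 6 members in lipid, amino acid, nucleotide and sugar metabolism, 1 was called with vehicle and 2 with atorvastatin, Pla1a in both and Hgd in the second. Of 7 members in signalling and the cytoskeleton, 1 was called in each, Sema5b. Of 7 in the secretory pathway and folding, 1 was called under atorvastatin (Rabl3). Of 4 mitochondrial members 1 was called under atorvastatin (Timmdc1), and of 3 transporters and 6 transcription and nuclear members, the authors called 0 in either comparison. Gsk3b, the kinase gene whose body ends closest to Nr1i2, was not listed in either knockout table, and neither were Cox17 or Adprh.

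The PCN and vehicle libraries test the same neighbourhood without a genotype. Of the 81 members, 56 passed the filter on low counts and 25 did not. edgeR called 1 of the 56, Lmln, beside 3.55% of all genes tested, and 10 had an unadjusted p under 0.05 (17.9%, against 17.8% of all genes). The median log2 difference was 0.03 over the members tested and -0.01 over all genes. Lmln, a metallopeptidase gene 5.12 Mb from Nr1i2, had 105, 119, 106 and 89.6 normalised counts with PCN, against 71.0, 70.3, 42.4 and 60.5 in vehicle. The groups did not overlap, at an edgeR log2 difference of 0.74 (SE 0.175, adjusted p = 0.0395), and this call was lost in all 8 fits that left out a library. The authors' deposited table called Lmln and Tmem39a, beside 3.91% of all genes. Tmem39a, a membrane protein of the endoplasmic reticulum 0.26 Mb from Nr1i2, had 177, 173, 171 and 154 with PCN, against 170.5, 279.8, 313 and 263 in vehicle (edgeR log2 -0.60, SE 0.160, adjusted p = 0.0669). Nr1i2 was not called (edgeR log2 0.12, adjusted p = 0.602).

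**Figure D5:**
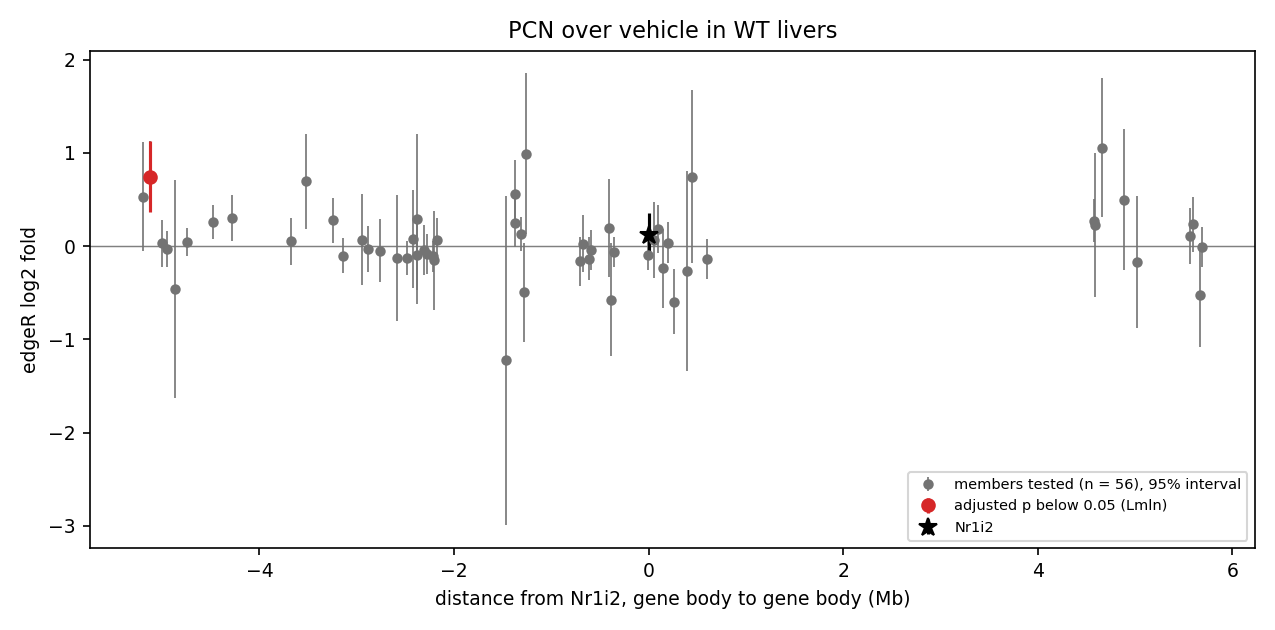
edgeR log2 difference of PCN over vehicle in WT livers (y axis) by distance from Nr1i2 in Mb (x axis) for the 56 members tested, with 95% intervals. Lmln is in red as the 1 member past adjusted p 0.05, at 0.74, and Nr1i2 is the star at 0.12.

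The members nearest to Nr1i2 that passed the filter are given next. Gsk3b averaged 1530.3 ± 115 normalised counts with PCN and 1639 ± 46.7 in vehicle. Cox17, a copper chaperone of cytochrome c oxidase, averaged 70.7 ± 8.96 with PCN and 66.0 ± 14.1 in vehicle. Adprh, which removes ADP-ribose from arginine, averaged 49.3 ± 7.82 with PCN and 57.0 ± 10.3 in vehicle. edgeR called none of these 3 genes.

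The members of highest level per length of exons in these 8 libraries were Hgd (2376 normalised counts per kb), Lrrc58 (429), Fam162a (362), Zbtb20 (333) and Dtx3l (276). None but Hgd was called in a PXRKO comparison by the authors. Zbtb20, a repressor of fetal genes in hepatocytes, averaged 11179 ± 1040.3 normalised counts with PCN and 9289 ± 1159 in vehicle (edgeR log2 0.27, adjusted p = 0.195).

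In WT livers, atorvastatin against vehicle had 6 members called by the authors, 4 higher (Heg1, Pdia5, Iqcb1, Ndufs5-ps) and 2 lower (Tmem39a, Igsf11), beside 6.69% of all genes. Tmem39a had 153, 148, 173 and 145 normalised counts with atorvastatin, against the vehicle values above, a ratio of 0.602 (adjusted p = 0.00090 in the authors' deposited table). Iqcb1, a ciliary protein gene, had 75.3, 79.9, 99.9 and 66.7 with atorvastatin, against 49.2, 49.5, 42.4 and 49.3 in vehicle (ratio 1.69, adjusted p = 0.0033 in the authors' deposited table). Iqcb1 did not overlap between groups and Tmem39a did, through 1 vehicle library. The PCN and atorvastatin comparisons share their vehicle libraries.

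Against vehicle, pravastatin in WT livers had 0 members called by DESeq2 in the authors' deposited table, beside 0.143% of all genes, and 4 of the 5 members that the least filtered table lists had an unadjusted p under 0.05. Atorvastatin in PXRKO livers had 0 members called by DESeq2, beside 0.0509% of all genes, and all 5 members listed there had an unadjusted p under 0.05. Both tables hold genes selected by their own result, so a low p of a listed member follows from the listing. These counts are therefore no result about the members and no shares of them.

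Those 5 members are Slc15a2, Mylk, Ndufb4, Gm49599 and a small nuclear RNA without a symbol, and they can also be read beside WT vehicle livers. Slc15a2, a proton-coupled peptide transporter, had 23.9, 42.6, 2.65 and 0 normalised counts in PXRKO atorvastatin livers, against 82.6, 116, 148 and 136 in PXRKO vehicle livers. In WT vehicle livers Slc15a2 had 134, 16.3, 7.37 and 67.2. The PXRKO groups did not overlap, while PXRKO vehicle and WT vehicle did, through 1 WT library. Mylk, the myosin light chain kinase, averaged 2869 ± 194 in PXRKO atorvastatin, 2413 ± 222 in PXRKO vehicle and 2699 ± 469 in WT vehicle. Ndufb4, a subunit of mitochondrial complex I, averaged 389.9 ± 10.3 in PXRKO atorvastatin, 457 ± 44.1 in PXRKO vehicle and 454 ± 39.1 in WT vehicle. For Mylk and Ndufb4 all these groups overlapped except Ndufb4 in PXRKO atorvastatin and WT vehicle. For all 5, PXRKO vehicle overlapped WT vehicle, and none passed in PXRKO atorvastatin over PXRKO vehicle, with adjusted p values of 0.723 to 0.970 in the authors' deposited table.

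At the window's edges, Iqcg and Lmln were the first members on the lower side (25.0 and 82.9 mean normalised counts) and Lrch3 and Gm6611 the last genes outside it (386 and 25.0). On the upper side Zdhhc23 and Gramd1c were the last members (20.3 and 559) and Atp6v1a and Naa50 the first genes outside it (895 and 1601). Of these 8, Atp6v1a was called under atorvastatin. In the 2 Mb past the upper edge, 6 of 27 listed genes were called with vehicle, 8 with atorvastatin and 5 in both in the same direction, beside 1.48%, 6.65% and 0.733% of all genes, while in the 2 Mb below the lower edge 0, 2 and 0 of 34 were. The genes called in both were Slc35a5, Abhd10, Phldb2, Gm15638 and Plcxd2, from 6.84 to 7.66 Mb from Nr1i2. This stretch was looked at after its values were seen.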

How the data were processed

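Liver total RNA libraries of 24 mice were read from 15 tables of one deposited workbook. Per the submitters' processing notes, HTSeq, DESeq2 and GRCm38 were used, without versions. No aligner or strand setting is named. The authors deposited raw counts for 8 libraries in each table. The deposited signal column, baseMean, is per the file headers the authors' mean normalised count of a gene, and it equals the mean of size-factor scaled counts. The authors' log2 fold changes and p-values were read as deposited; log2 ratios in the text are of group means. Only the vehicle and PCN table holds nearly all genes, the others list genes by their own result.

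Genes were joined by symbol, chromosome and start, and starts, which count from 0, were raised by 1. Table columns name no sample and were assigned to groups by table name and by identical counts. Size factors came from least squares on baseMean, and tables were linked through shared groups (spread at most 0.240%). PCN against vehicle was tested in edgeR 4.0.16 (TMM, filterByExpr, quasi-likelihood F test, Benjamini-Hochberg adjusted p of 0.05). Knockout comparisons use the authors' calls. Beside them stands edgeR on listed genes, with the dispersion trend and prior of the PCN fit and p-values adjusted over 14780 and 14690 genes, the numbers that the authors' adjustment implies. Both fits were run on simulated data, the fit on listed genes only on those that the other fit had called there. Shares are over the 19649 genes other than Nr1i2. Named genes are Nr1i2, called members, the nearest, the highest per length and those at the edges. Poglut1 and genes past the edges were chosen after their values were seen. Members, lists and distance steps were chosen with earlier results of these data known. Alternatives covered thresholds, tools, filters, windows and libraries left out. R 4.3.3 ran edgeR, limma 3.58.1 and DESeq2 1.42.0, and Python 3.11.15 ran pandas 2.3.3, numpy 2.4.6 and matplotlib 3.10.9.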

Additional observations from a re-analysis of the deposited data

Results flagged for a closer look

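In 27 named genes, 86 groups of 4 libraries were searched for a library far from its group, and 5 were found, where chance gives about 1 in 20 groups. Hgd stood at 12200.4 normalised counts in 1 PXRKO atorvastatin library, against 6877 to 7586 in the other libraries of that group. Rabl3 stood at 345 in 1 PXRKO atorvastatin library, against 253 to 265 in the others. Nr1i2 stood at 398 in 1 PXRKO atorvastatin library, against 609 to 650.2 in the others. Timmdc1 stood at 448 in 1 WT vehicle library, against 350.1 to 359 in the others. Iqcb1 stood at 42.4 in 1 WT vehicle library, against 49.2 to 49.5 in the others.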

How the results depend on the processing

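The log2 ratios of the 15 called values kept their direction in all 135 settings (size factors from another table, each library left out). These values were chosen because they were called on the same libraries, so a kept direction is no support for them. Counts of called members were less steady. Of 49 alternative settings for those counts, 15 gave the same count or one within 1.5-fold. Pla1a and Igsf11 were called by edgeR with every library left out. With vehicle, the authors' test called 2 members, against 1 within 2 Mb of Nr1i2 and 8 with the window widened by 2 Mb on both sides. edgeR on the listed genes called 1 with all libraries and 1 to 1 with a library left out. The authors' test was not refitted with a library left out, so whether its count of 2 depends on 1 library was not tested. With atorvastatin, the authors' test called 9, against 4 with at least a 1.5-fold difference, 5 within 2 Mb and 19 with the widened window. edgeR called 3 with all libraries and 2 to 4 with a library left out. Those 3 of 81 are a share below the 6.45% that edgeR called of the genes that the authors' adjustment covers. Called in both, 2 became 1 with edgeR and 7 with the widened window. With PCN, 1 became 3 at adjusted p 0.1, 2 with DESeq2, 2 with the authors' adjusted p, and 0 to 1 with a library left out, where the 1 was Tmem39a or Mylk. The widened window and the counting of Poglut1 (3, 10 and 3 members) were added after the data were seen. The threshold of 0.1 could not be applied under atorvastatin, or in both, because the table named for it stops at 0.0446. No paired analysis was possible because the columns of the tables carry no shared replicate numbers. The cause of these changes was not tested, beyond fewer or more genes in the window. Depth limits low members: 26 of 81 had a mean below 10 normalised counts, and 25 were left out of the PCN test.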

Other observations

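The genes in the 2 Mb past the upper edge of the window, chosen after their values were seen, are given here as values. Gm15638, annotated antisense and overlapping Phldb2 and Plcxd2, had 20.4, 32.1, 19.4 and 49.3 normalised counts in PXRKO vehicle livers, against 191, 121, 197 and 106 in WT vehicle livers. It had 23.9, 20.5, 48.7 and 39.5 in PXRKO atorvastatin livers, against 146, 155, 144 and 170.2 in WT atorvastatin livers. Its ratios were 0.197 and 0.215 (the authors' deposited tables give adjusted p values of 6.8e-12 and 3.4e-18), and no PXRKO library reached a WT library.

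Abhd10, a mitochondrial hydrolase gene, averaged 47.3 ± 9.66 in PXRKO vehicle and 96.4 ± 11.5 in WT vehicle (SD, n = 4 each, ratio 0.491), and its ratio under atorvastatin was 0.527, both without overlap. Slc35a5, of a nucleotide sugar transporter family, had ratios of 0.758 and 0.689, and Phldb2, a cytoskeletal adapter, 0.765 and 0.775, both without overlap. Plcxd2, a phospholipase C family gene that overlaps Gm15638, was higher, at ratios of 1.43 and 1.46, and overlapped between groups under atorvastatin. Tagln3, a calponin family gene, had 0 counts in all 4 PXRKO vehicle libraries, against 17.5, 10.9, 22.1 and 7.47 normalised counts in WT vehicle. Tagln3 was at least 20.6-fold lower against a floor of 3 counts over the group (adjusted p = 5.5e-05 in the authors' deposited table). The authors did not call Tagln3 under atorvastatin, and no PXRKO atorvastatin value is listed for it. Strand use in counting is not given, so reads of Gm15638 and its overlapping genes cannot be told apart. Genotype and experiment cannot be told apart, and no cause was tested.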
